A study of Mus musculus with 6 samples.

Results

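DNA methylation at CpG sites is copied after replication by DNMT1, which UHRF1 brings to newly copied DNA, and is laid down on unmethylated DNA by DNMT3A and DNMT3B with the catalytically inactive partner DNMT3L. TET enzymes oxidize methylated cytosine, which opens a route to its removal, while ZFP57 and TRIM28 hold methylation at imprinted control regions and DPPA3 limits the access of UHRF1 to chromatin. Mouse embryonic stem cells (mESCs) derive from the early embryo, which rewrites its methylation, and are known to express much of this machinery. The 10 genes described here, *Dnmt1*, *Uhrf1*, *Dnmt3a*, *Dnmt3b*, *Dnmt3l*, *Tet1*, *Tet2*, *Zfp57*, *Trim28* and *Dppa3*, were picked by symbol for these roles from the 55385 genes of a table of RNA read counts. All 10 entered the tests, with between 744 counts for *Dppa3* and 61846 for *Trim28* in a library. RNA was measured and DNA methylation was not, so each value is a transcript level.

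RNA was sequenced to ask what deletion of the *Wnt6* locus, a Polycomb-bound loop anchor, does to gene expression in mESCs. The wild-type (WT) cells were G4 mESCs, an F1 hybrid line of 129/Sv and C57BL/6, and the other genotypes carried a heterozygous or a homozygous *Wnt6* deletion made in that line with CRISPR-Cas9. All 3 genotypes were kept with LIF on CD1 feeder cells, and RNA was extracted after direct lysis, so feeder RNA can be in every library. The labels give 2 replicate libraries per genotype while the methods state triplicates, and neither says how many clones the RNA came from, so the p-values measure the spread between these libraries, which may be technical.

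Each library held 23813912 to 28964706 counts, and edgeR was run on the 16951 genes that reached 10 counts in 2 or more libraries. A gene is called higher or lower where its Benjamini-Hochberg adjusted p over all tested genes is below 0.05, with no minimum fold, and CPM values use totals adjusted for composition with TMM factors. *Wnt6* had 11 and 13 counts in WT, 6 and 4 in the heterozygous and 0 and 0 in the homozygous libraries. All 15 pluripotent cell markers were detected, and their summed level ran from 4438 to 4983 CPM (counts scaled to a common library total) over the 6 libraries. None of the 26 listed fibroblast markers was at 0 in every library. Their summed level was 4570 to 4663 CPM in WT, 3479 to 3491 in heterozygous and 2539 to 2545 in libraries of homozygous cells. It was lower in heterozygous than in WT libraries and lowest in homozygous ones, without overlap. In heterozygous against WT cells 18 of 24 tested markers were lower, beside 2.91% of all tested genes. In homozygous against WT cells 21 were lower and none higher, beside 10.5% and 10.9%. In homozygous against heterozygous cells 20 were lower and 1, *Mmp2*, was higher, beside 12.9% and 12.9%. A link of this order to the number of deleted alleles was not tested. The 10 listed primitive endoderm markers summed to 49.78 to 52.15 CPM in WT and 57.04 to 59 in heterozygous libraries. In homozygous libraries they summed to 45.77 to 47.29, so the genotypes did not overlap. Of the 7 tested, 1, *Cubn*, was higher in heterozygous than in WT cells, beside 2.23% of all tested genes. In homozygous cells 2 were lower than in WT and 4 lower than in heterozygous cells, beside 10.5% and 12.9%. The 10 listed two-cell-like markers summed to 0.783 to 0.7833 CPM in WT and 0.7516 to 0.7637 in heterozygous libraries. In homozygous libraries they summed to 1.653 to 1.965. Of the 2 tested, 1 was higher in homozygous cells in each comparison, beside 10.9% and 12.9% of all tested genes. Neither comparison had a call among these markers in DESeq2. In such bulk libraries fewer cells of a type and less RNA per cell cannot be told apart. On chromosome 8 the median over 890 genes was 0.39 higher on the log2 scale in homozygous than in WT cells. Against heterozygous cells that median was 0.51. None of the 10 genes lies there, but *Mmp2* does, with a log2 fold change of 0.32 in homozygous against heterozygous cells.

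Levels were compared between genes as CPM per kilobase of exon, because a long transcript collects more reads. In WT cells *Trim28*, the corepressor that KRAB zinc finger proteins recruit, stood highest at 512.4 ± 8.55 CPM per kb (SD, n = 2). *Dnmt3b* followed at 246.5 ± 0.603, *Dnmt3l* at 118.2 ± 2.56 and *Uhrf1* at 109.4 ± 0.551 CPM per kb (SD, n = 2). *Zfp57* at 50.57 ± 0.313 and *Dnmt1* at 50.51 ± 1.11 CPM per kb could not be ordered, because their libraries overlapped (SD, n = 2). *Dppa3* stood at 36.41 ± 1.73 CPM per kb (SD, n = 2). *Tet1* at 27.85 ± 3.12 and *Dnmt3a* at 27.74 ± 1.09 CPM per kb also overlapped (SD, n = 2). *Tet2* was the lowest at 3.015 ± 0.14 CPM per kb (SD, n = 2), and *Tet1* stood 8.043 to 9.652 times above it over the 6 libraries. Within each library the de novo enzyme *Dnmt3b* stood 8.662 to 9.62 times above *Dnmt3a* per kb, and the cofactor *Dnmt3l* stood 4.209 to 4.398 times above it. In both deletion genotypes *Dnmt1* moved above *Zfp57*, and no neighbors in the order overlapped. With the longest coding transcript as the length, *Dnmt3a* ranked above *Dppa3* and *Tet1*, and *Zfp57* ranked above *Dnmt1* in WT (73.73 against 63.48 CPM per kb) and in heterozygous cells (64.7 against 63.93). On that length *Tet1* stood at 29.96 and *Tet2* at 5.541 CPM per kb in WT, and *Dnmt3b* at 291.4 and *Dnmt3a* at 47.67. These places and the distances between the TET genes and between *Dnmt3b* and *Dnmt3a* thus depend on which transcript the cells use. Before length scaling, 9 of the 10 genes lay at or above the 75.2 percentile of mean CPM among the tested genes, and *Dppa3* lay at the 64.7 percentile.

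**Figure D1:**
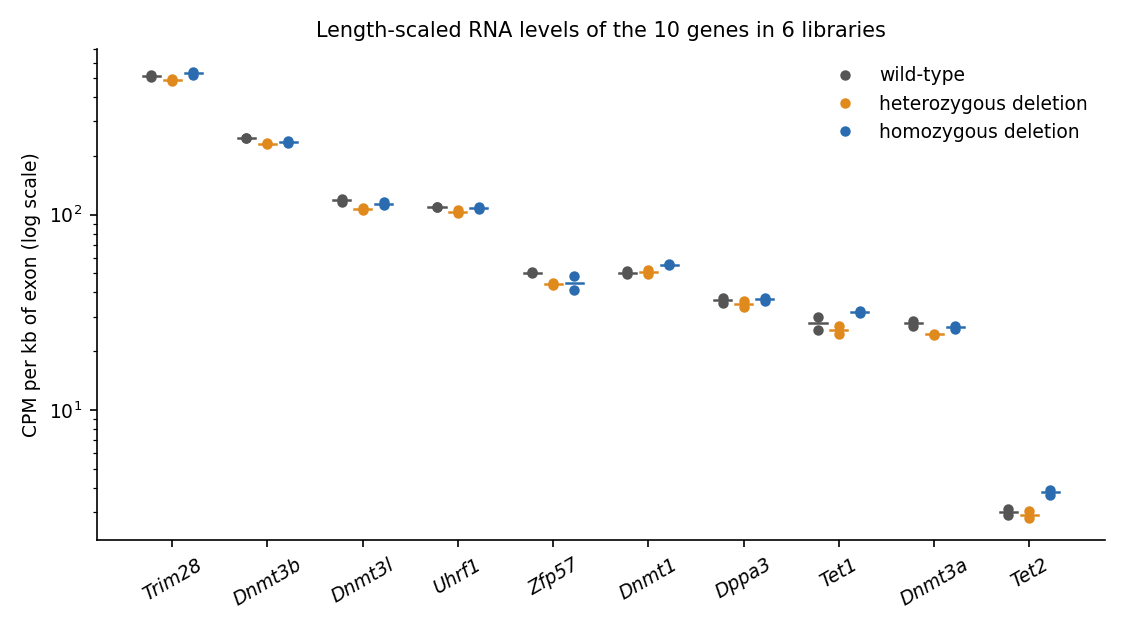
Level of each of the 10 genes in each library, as CPM per kilobase of exon on a log axis, with points for libraries and bars for genotype means (n = 2). *Trim28* lies highest, at 512.4 CPM per kb in WT, and *Tet2* lowest, at 3.015, while *Zfp57* lies beside *Dnmt1* and *Tet1* beside *Dnmt3a*.

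The maintenance pair came first. *Dnmt1* (chromosome 9 of GRCm38, 20907209 to 20959888, minus strand), the enzyme that copies methylation, was at 378 and 367 CPM in WT, 384 and 367 in heterozygous and 410 and 405 in libraries of homozygous cells. Both homozygous libraries lay above the other 4, which overlapped. *Dnmt1* was 9.46% higher in homozygous than in WT cells (log2 fold change 0.13 ± 0.0412 SE, adjusted p = 0.0286, edgeR quasi-likelihood test) and differed little between heterozygous and WT cells (0.01 ± 0.0413 SE, adjusted p = 0.945 in edgeR, 95% interval -0.0762 to 0.0964). Its partner *Uhrf1* (chromosome 17, 56303321 to 56323486, plus strand) was at 464 and 468 CPM in WT, 448 and 434 in heterozygous and 464 and 453 in libraries of homozygous cells. No *Uhrf1* difference passed the test, with log2 fold changes of -0.08, -0.02 and 0.06 and edgeR adjusted p from 0.328 to 0.755 over the 3 comparisons. The ratio of *Uhrf1* to *Dnmt1* per kb was 2.125 and 2.208 in WT, 2.025 and 2.049 in heterozygous and 1.96 and 1.937 in libraries of homozygous cells. That ratio was lowest in both homozygous libraries and highest in both WT libraries.

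Of the 3 de novo genes, *Dnmt3a* and *Dnmt3l* were lower in heterozygous than in WT cells and *Dnmt3b* did not pass. *Dnmt3a* (chromosome 12, 3806007 to 3914443, plus strand) was at 449 and 474 CPM in WT, 409 and 403 in heterozygous and 451 and 433 in libraries of homozygous cells. Both heterozygous libraries lay below the other 4. *Dnmt3a* fell by 12% against WT (log2 fold change -0.18 ± 0.0422 SE, adjusted p = 0.0118 in edgeR). *Dnmt3l* (chromosome 10, 78041947 to 78063622, plus strand) was at 348 and 359 CPM in WT, 323 and 316 in heterozygous and 345 and 335 in libraries of homozygous cells, again with both heterozygous libraries lowest. It fell by 9.5% against WT (-0.14 ± 0.041 SE, adjusted p = 0.0465 in edgeR). *Aire* overlaps *Dnmt3l* on the other strand and had 1460 counts over the 6 libraries beside 52441 for *Dnmt3l*. *Dnmt3b* (chromosome 2, 153649450 to 153687730, plus strand), the most abundant of the methyltransferase transcripts, was at 1257 and 1261 CPM in WT, 1170 and 1189 in heterozygous and 1221 and 1184 in libraries of homozygous cells. Both WT libraries lay above the other 4, but no *Dnmt3b* difference passed the test (log2 fold change -0.09 ± 0.0379 SE and adjusted p = 0.201 in heterozygous, -0.07 ± 0.038 SE and adjusted p = 0.242 in homozygous cells, edgeR). In homozygous cells *Dnmt3a* (-0.06, adjusted p = 0.331 in edgeR, 95% interval -0.151 to 0.0253) and *Dnmt3l* (-0.05, adjusted p = 0.399 in edgeR, 95% interval -0.14 to 0.0316) did not pass against WT.

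A promoter window of each of the 2 genes that fell in heterozygous cells is shown because these windows differ in the sites that this machinery itself acts on. Each is a RefSeq window on GRCm38.p6 from 250 bases before a transcript start to 50 after it, given 5′ to 3′ on the strand of the gene with each CpG in capitals. The *Dnmt3a* window (chr12:3806730-3807029, plus strand) is the first of 3 and holds 46 CpG sites, and the *Dnmt3l* window (chr10:78042037-78042336, plus strand) is the first of 3 and holds 6.
Dnmt3a: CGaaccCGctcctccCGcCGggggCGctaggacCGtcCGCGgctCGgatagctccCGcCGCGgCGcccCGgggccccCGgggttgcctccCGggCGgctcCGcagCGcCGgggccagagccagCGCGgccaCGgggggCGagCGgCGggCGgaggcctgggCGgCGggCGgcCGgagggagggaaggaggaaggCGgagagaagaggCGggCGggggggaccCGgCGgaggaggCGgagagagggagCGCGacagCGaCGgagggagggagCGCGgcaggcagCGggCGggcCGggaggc
Dnmt3l: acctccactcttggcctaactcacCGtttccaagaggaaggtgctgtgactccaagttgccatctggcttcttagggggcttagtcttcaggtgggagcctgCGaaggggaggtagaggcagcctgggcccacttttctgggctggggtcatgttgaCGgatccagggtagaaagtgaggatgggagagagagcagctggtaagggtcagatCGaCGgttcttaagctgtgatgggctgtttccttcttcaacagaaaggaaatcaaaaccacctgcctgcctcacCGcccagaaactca
The other windows of *Dnmt3a* held 47 and 18 sites, and those of *Dnmt3l* held 4 and 3. Which of these transcript starts the cells used was not tested. The letters CG read the same on both strands, and sites cannot overlap. Of 32851 such windows in 27025 genes, 94.6% held at least 1 CpG and the median was 7. As many as the 46 of *Dnmt3a* or more were found in 1.65% of windows, and as many as the 6 of *Dnmt3l* or more in 56.4%.

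The TET genes showed the largest differences of the 10 in both comparisons of the homozygous deletion. *Tet1* (chromosome 10, 62804570 to 62908996, minus strand) was at 465 and 396 CPM in WT, 381 and 418 in heterozygous and 499 and 486 in libraries of homozygous cells. Both homozygous libraries lay above the other 4, although the WT libraries were widely spaced. *Tet1* was 23.3% higher in homozygous than in heterozygous cells (log2 fold change 0.30 ± 0.0583 SE, adjusted p = 0.000646 in edgeR) and 14.3% higher than in WT cells (0.19 ± 0.0581 SE, adjusted p = 0.0219 in edgeR). The second value rested on the lower WT library: without WT replicate 2 it was 0.09 with an adjusted p of 0.356 in edgeR, and it also missed the threshold in DESeq2 (adjusted p = 0.235). *Tet2* (chromosome 3, 133463679 to 133545139, minus strand) was at 52.5 and 49.2 CPM in WT, 47.2 and 51.2 in heterozygous and 62.0 and 65.9 in libraries of homozygous cells. The homozygous libraries again lay above the other 4, which overlapped. *Tet2* was 25.7% higher in homozygous than in WT cells (0.33 ± 0.0584 SE, adjusted p = 0.00031 in edgeR) and 30% higher than in heterozygous cells (0.38 ± 0.059 SE, adjusted p = 7.31e-05 in edgeR). Neither gene passed in heterozygous against WT cells, with log2 fold changes of -0.11 for *Tet1* and -0.05 for *Tet2* (adjusted p = 0.373 and 0.768 in edgeR). Of all calls among the 10 genes, those for *Tet2* against both other genotypes and for *Tet1* against heterozygous cells were the 3 that held in each of 12 alternative analyses, which changed the scaling, filter, test or libraries used.

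Promoter windows of both TET genes are shown because these genes moved in the same direction and both act on methylated CpG. The RefSeq table gives each of them 1 window, at chr10:62887275-62887574 for *Tet1* and chr3:133544341-133544640 for *Tet2*, both on the minus strand and both inside the annotated gene span.
Tet1: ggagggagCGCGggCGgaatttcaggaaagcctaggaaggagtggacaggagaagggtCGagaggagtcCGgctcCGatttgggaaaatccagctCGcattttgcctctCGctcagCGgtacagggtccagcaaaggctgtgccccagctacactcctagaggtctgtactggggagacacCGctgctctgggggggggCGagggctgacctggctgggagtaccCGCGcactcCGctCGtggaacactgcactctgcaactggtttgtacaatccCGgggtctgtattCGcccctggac
Tet2: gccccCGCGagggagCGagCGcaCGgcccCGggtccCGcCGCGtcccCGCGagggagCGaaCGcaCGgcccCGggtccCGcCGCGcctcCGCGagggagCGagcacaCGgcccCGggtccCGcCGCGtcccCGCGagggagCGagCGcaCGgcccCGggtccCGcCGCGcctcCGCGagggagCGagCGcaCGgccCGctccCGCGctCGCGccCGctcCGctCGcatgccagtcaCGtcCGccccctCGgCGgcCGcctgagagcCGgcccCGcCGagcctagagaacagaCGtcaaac
The *Tet2* window held 57 CpG sites, a number reached by 0.152% of all windows, and the *Tet1* window held 17, reached by 31.4%. Of the 10 genes, 9 had a window. *Trim28* had 23 sites, *Dnmt3b* 30, the 2 windows of *Uhrf1* 12 and 33, the 3 of *Dnmt1* 2, 12 and 33, and the 3 of *Zfp57* 6, 9 and 4. *Dppa3* is named only. Windows of the genes called higher against WT, *Dnmt1*, *Tet1* and *Tet2*, held 2 to 57 sites. Those of the genes called lower, *Dnmt3a*, *Dnmt3l* and *Zfp57*, held 3 to 47. A link of CpG number to these differences was not tested.

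**Figure D2:**
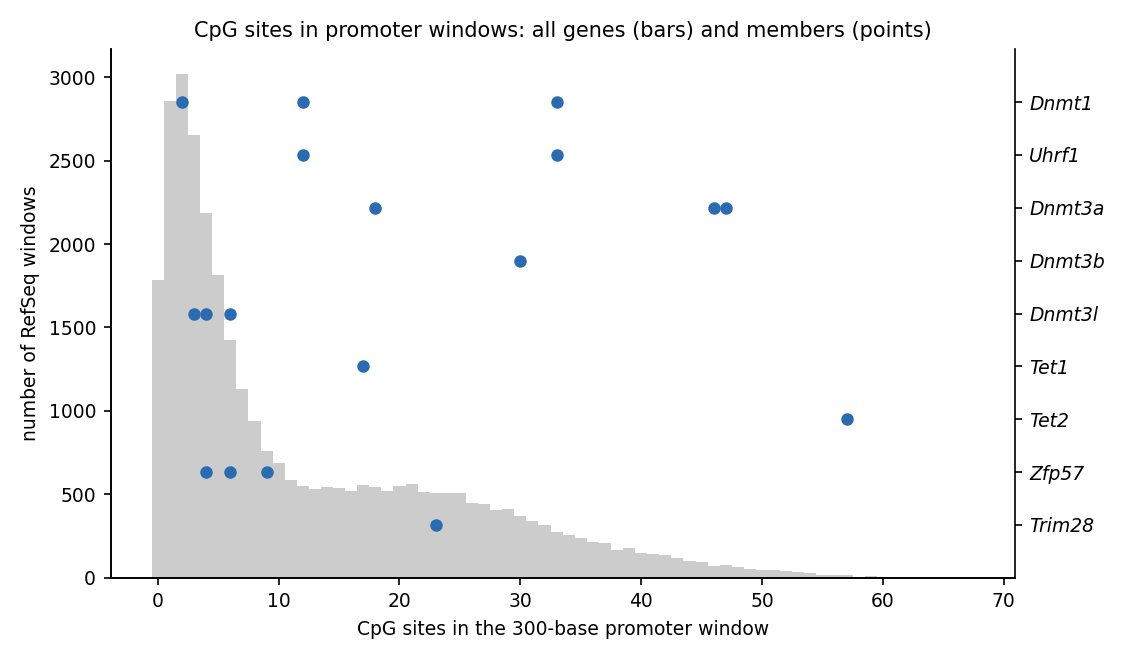
Number of CpG sites in RefSeq promoter windows of 300 bases: gray bars count all 32851 windows (left axis), and each point is a window of the gene named on the right. The single *Tet2* window, with 57 sites, lies at the far right, while the 3 *Dnmt3l* windows hold 6 or fewer.

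The imprint protection genes differed among themselves. *Zfp57* (chromosome 17, 37001163 to 37010635, plus strand), whose protein binds methylated imprinted control regions, was at 191 and 192 CPM in WT, 166 and 170 in heterozygous and 155 and 184 in libraries of homozygous cells. All 4 deletion libraries lay below both WT libraries, and the homozygous libraries were the most widely spaced of this gene. *Zfp57* fell by 11.2% in homozygous cells (log2 fold change -0.17 ± 0.0577 SE, adjusted p = 0.0397 in edgeR), and without homozygous replicate 1 the value was -0.05 with an adjusted p of 0.532. The call was also lost without either WT replicate, in DESeq2 (adjusted p = 0.0841) and with robust estimation. In heterozygous cells its log2 fold change was -0.19 ± 0.0576 SE (adjusted p = 0.0688 in edgeR), which did not pass, and its difference between homozygous and heterozygous cells was 0.02 (95% interval -0.105 to 0.139). *Trim28* (chromosome 7, 12999114 to 13031035, plus strand), the corepressor that ZFP57 recruits, was at 2105 and 2156 CPM in WT, 2044 and 1997 in heterozygous and 2244 and 2145 in libraries of homozygous cells. Homozygous libraries lay above heterozygous ones (0.12 ± 0.0386 SE, adjusted p = 0.0291 in edgeR, 8.59% higher), and neither deletion passed against WT (-0.08 and 0.04, adjusted p = 0.343 and 0.493 in edgeR). *Zbtb45* overlaps *Trim28* on the other strand, with 4070 counts over the 6 libraries beside 328074. For each 1000 *Trim28* counts there were 90.55 and 89.21 *Zfp57* counts in WT, 81.13 and 85.21 in heterozygous and 69.22 and 85.97 in libraries of homozygous cells, so all 4 deletion libraries lay below both WT libraries. *Dppa3* (chromosome 6, 122626410 to 122630272, plus strand) was at 31.4 and 33.6 CPM in WT, 29.9 and 32.1 in heterozygous and 33.3 and 32.4 in libraries of homozygous cells. Its intervals against WT ran from -0.201 to 0.0733 in heterozygous and from -0.12 to 0.154 in homozygous cells, so a change of the size seen for *Tet2* in homozygous cells lay outside both.

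**Figure D3:**
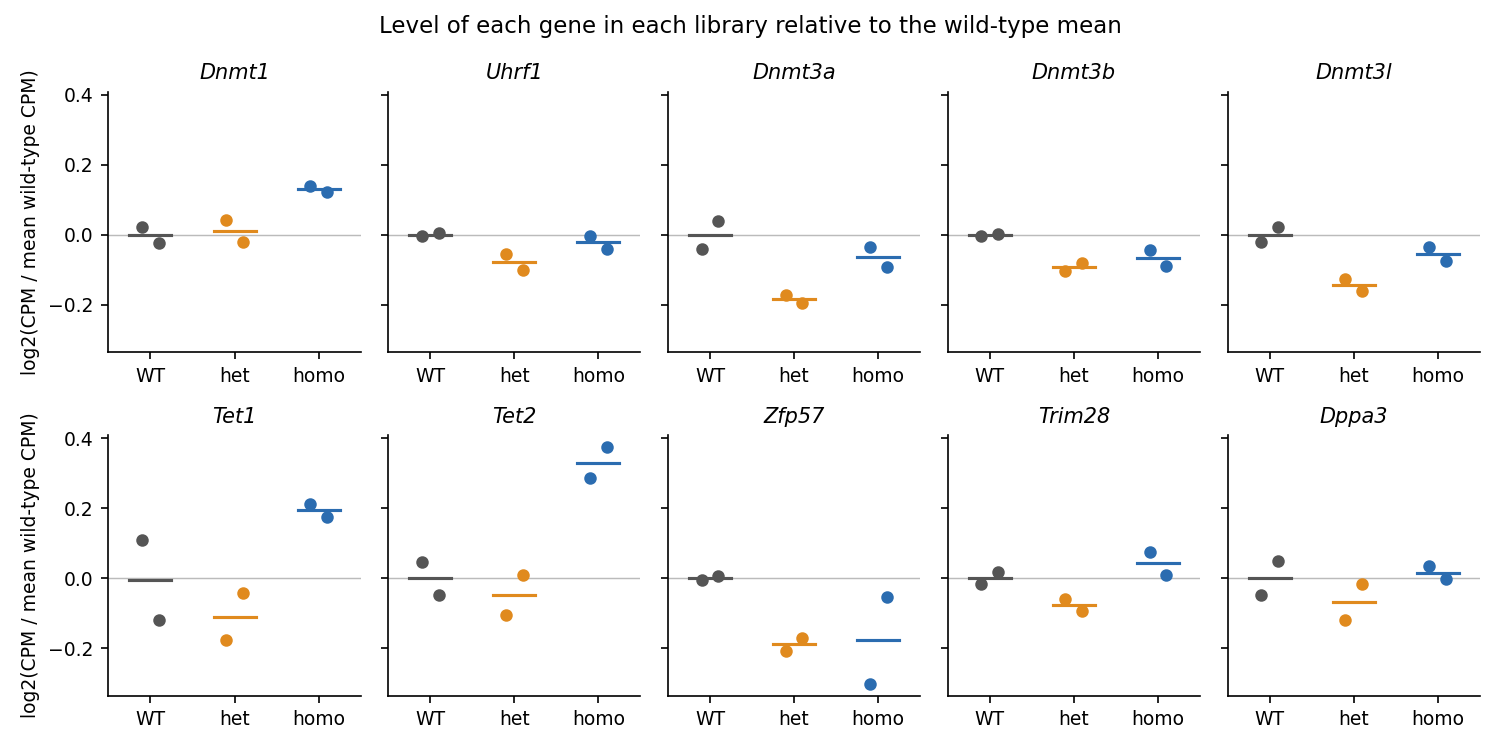
Level of each of the 10 genes in each library as log2 of its CPM over the mean WT CPM, with 1 point per library and a bar at the genotype mean (n = 2; het, heterozygous deletion; homo, homozygous deletion). Both homozygous libraries lie above all others for *Dnmt1*, *Tet1* and *Tet2*. Both heterozygous libraries lie lowest for *Uhrf1*, *Dnmt3a*, *Dnmt3l* and *Trim28*, and the homozygous *Zfp57* points are far apart.

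In heterozygous against WT cells 2 of the 10 genes were lower, *Dnmt3a* and *Dnmt3l*, and none was higher, beside 5.14% of all tested genes called in either direction, 2.23% higher and 2.91% lower. Among the 5987 tested genes with a mean level at or above that of *Dppa3*, the lowest of the 10, the share called was 7.6%, with 3.46% higher and 4.14% lower. The log2 fold change was below 0 for 9 of 10 genes, with a median of -0.0862 against 3.68e-06 over all tested genes. The libraries of the genotypes did not overlap for 6 of the 10, all lower, beside 47.7% of all tested genes. The *Dnmt3l* call was lost without any 1 of the 4 libraries, with adjusted p up to 0.394, and the *Dnmt3a* call was lost without WT replicate 2 or either heterozygous replicate, with adjusted p up to 0.259. Here and in what follows, such an upper value is the highest over the 12 alternatives.

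In homozygous against WT cells 3 genes were higher, *Dnmt1*, *Tet1* and *Tet2*, and *Zfp57* was lower, beside 21.4% of all tested genes called, 10.9% higher and 10.5% lower. Among tested genes at or above the level of *Dppa3* the share called was 29.8%, with 20.5% higher and 9.22% lower. The 10 genes divided evenly around 0, with a median of -0.00264 against -0.00608 over all tested genes. Libraries did not overlap for 6 genes, 3 higher and 3 lower, beside 57.9% of all tested genes. The *Dnmt1* call was lost without either WT replicate or homozygous replicate 1 (adjusted p up to 0.188). With library totals in place of composition-adjusted totals, 1 gene was higher and 4 were lower, since *Dnmt1* and *Tet1* no longer passed while *Dnmt3a*, *Dnmt3b* and *Dnmt3l* passed at log2 fold changes of -0.12, -0.12 and -0.11; that scaling also took the share of higher calls among all called genes from 50.8% to 31.9%.

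In homozygous against heterozygous cells all 10 log2 fold changes were above 0 and 5 genes were called higher, *Dnmt1*, *Dnmt3a*, *Tet1*, *Tet2* and *Trim28*, beside 25.8% of all tested genes called, 12.9% higher and 12.9% lower. Among tested genes at or above the level of *Dppa3*, 37.1% were called, 23.8% higher and 13.2% lower. The median was 0.104 against -0.0196 over all tested genes, and libraries did not overlap for 8 of 10 genes, all higher, beside 61.4% of all tested genes. *Dnmt1* (0.12, adjusted p = 0.0379), *Dnmt3a* (0.12, adjusted p = 0.04) and *Trim28* (0.12, adjusted p = 0.0291) lay close to the edgeR threshold, and all 3 calls were lost without either heterozygous replicate or homozygous replicate 1 and with library totals alone. With library totals the share of higher calls among all called genes went from 50.1% to 29.4%, and *Uhrf1*, *Dnmt3b* and *Zfp57* turned to just below 0. None of the 10 genes passed a log2 fold change of 1 in any comparison, beside 0.165%, 2.14% and 1.39% of tested genes in heterozygous against WT, homozygous against WT and homozygous against heterozygous cells. Both deletions were set against the same WT libraries, and the heterozygous libraries entered 2 comparisons, so the 3 comparisons are not independent.

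**Figure D4:**
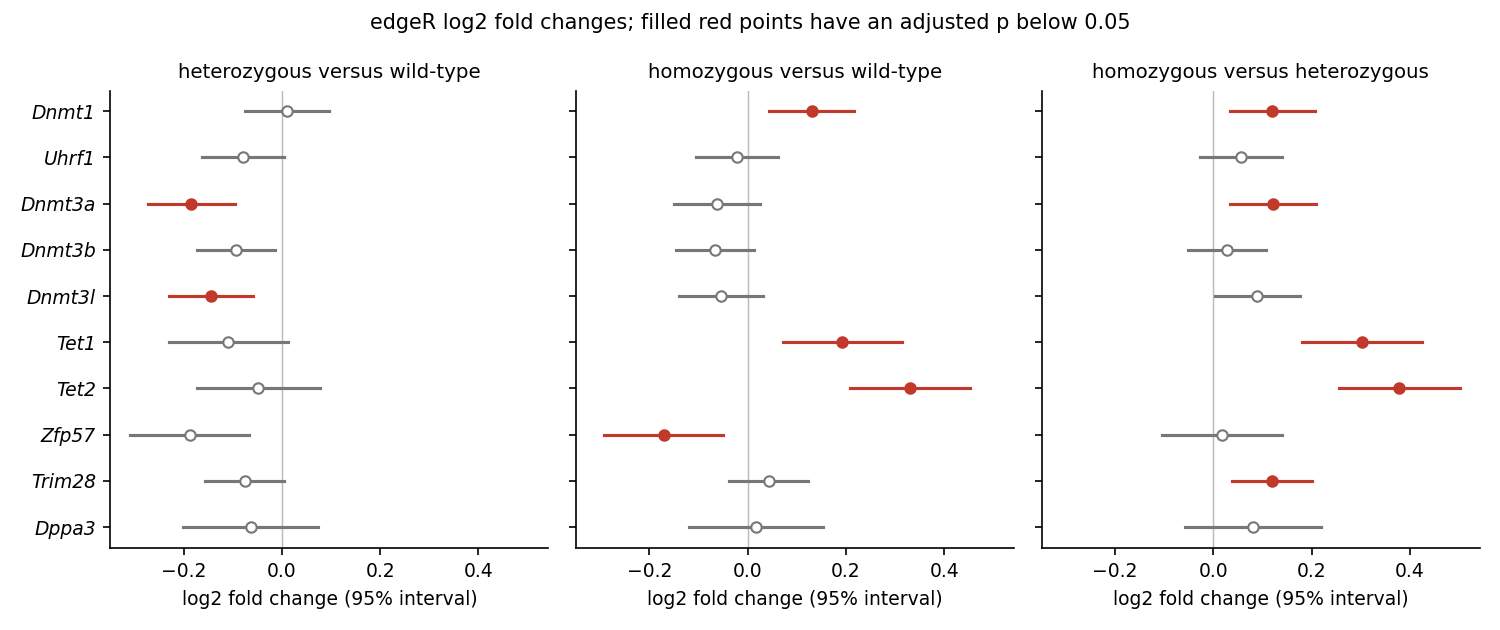
edgeR log2 fold changes of the 10 genes with 95% intervals in the 3 comparisons; filled red points have an adjusted p below 0.05 and open points do not. *Tet1* and *Tet2* lie farthest to the right in both comparisons of the homozygous deletion, and every interval stays within a log2 change of 0.502.

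The balance between enzymes that add and enzymes that oxidize methylation was also read within libraries, where scaling between libraries cancels. *Tet3*, a TET gene not among the 10, was left out. The summed level of *Dnmt1*, *Dnmt3a* and *Dnmt3b* per kb was 9.78 and 11.39 times that of *Tet1* and *Tet2* in WT, 11.15 and 10.21 times in heterozygous and 8.954 and 8.852 times in libraries of homozygous cells. Both homozygous libraries lay below the other 4. The largest terms of the sums were *Dnmt3b* (246.5 CPM per kb in WT) and *Tet1* (27.85), and both sums depend on the transcript length used. For each 1000 *Dnmt3a* counts there were 117 and 103.7 *Tet2* counts in WT, 115.4 and 127 in heterozygous and 137.5 and 152.2 in libraries of homozygous cells. *Tet2* thus stood highest relative to *Dnmt3a* in the homozygous libraries under any scaling, and the WT and heterozygous libraries overlapped. *Tet1* counts for each 1000 of *Dnmt3a* were 1035 and 835.4 in WT, 929.7 and 1037 in heterozygous and 1106 and 1122 in libraries of homozygous cells. With 2 libraries against 2, an exact permutation test of such a ratio cannot reach 0.05, and none was made.

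Genes that work with the 10 were read from 4 lists of 51 genes, all tested. In heterozygous against WT cells 1 of 51 was higher and 2 were lower, beside 2.23% and 2.91% of all tested genes. The list genes called were *Tet3* (log2 fold change 0.24, adjusted p = 0.0373 in edgeR), the third TET enzyme, *Zbtb4* (-0.47, adjusted p = 0.0373), a reader of methylated CpG, and *Zfp42* (-0.31, adjusted p = 0.000171), a zinc finger gene that also marks pluripotent cells. The *Tet3* and *Zbtb4* calls were each lost in DESeq2 and on leaving out any 1 library, and the *Zbtb4* call also with library totals. Over the 12 alternatives their log2 fold changes ran from 0.198 to 0.287 and from -0.566 to -0.381. The *Zfp42* call held in all 12 alternatives. In homozygous against WT cells 12 of 51 were higher and 5 lower, and in homozygous against heterozygous cells 15 were higher and 5 lower. Over all tested genes 10.9% were higher and 10.5% lower in the former comparison and 12.9% and 12.9% in the latter, and among genes at or above the level of *Dppa3* 20.5% and 9.22%, and 23.8% and 13.2%.

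The 14 cofactors of methylation, which remodel or mark chromatin for the methyltransferases, accompany DNMT1 at replication or supply the methyl donor, included 7 higher genes and none lower in homozygous against WT cells, with a median log2 fold change of 0.126 (0.0688 with library totals), beside 10.9% of all tested genes higher. *Uhrf2*, a relative of *Uhrf1*, rose from 46.75 ± 1.09 to 56.79 ± 2.74 CPM (SD, n = 2; 0.28, adjusted p = 0.000953 in edgeR). *Setd2* (0.23, adjusted p = 0.000554) and *Nsd1* (0.21, adjusted p = 0.00203), which methylate histone H3 at lysine 36, rose as well, and all 3 calls held in 12 of 12 alternatives. Against heterozygous cells 7 of the 14 were again higher and none lower (median 0.147), beside 12.9% of all tested genes higher, or 5 higher with a median of 0.0795 with library totals. The leading genes there were *Hells* (0.31, adjusted p = 6.04e-06 in edgeR), a remodeler needed for methylation of repeats, *Pcna* (0.27, adjusted p = 6.98e-05), the replication clamp, and *Lig1* (0.24, adjusted p = 0.000269), the replicative ligase, all 3 held in each alternative. Of these 14 genes none passed in heterozygous against WT cells (median 8.57e-05), beside 5.14% of all tested genes.

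Of 14 genes for oxidation and excision, 1 was higher and 1 lower in homozygous against WT cells, beside 10.9% and 10.5% of all tested genes. *Tdg*, the glycosylase that removes oxidized cytosine, rose from 59.62 ± 2.06 to 69.48 ± 1.73 CPM (SD, n = 2; 0.22, adjusted p = 0.00475 in edgeR), and its adjusted p was 0.0658 without WT replicate 2. *Cxxc5*, a CpG-binding factor, was lower (-0.20, adjusted p = 0.0296 in edgeR). That call was lost in DESeq2 and without any 1 of the 4 libraries (-0.26 to -0.179 over the alternatives). The list median was 0.0547, or -0.00241 with library totals. Against heterozygous cells 2 of the 14 were higher and 2 lower, or 1 and 4 with library totals (median -0.019, or -0.0858). Of all tested genes 12.9% were higher and 12.9% lower there. *Tdg* (0.18, adjusted p = 0.0142 in edgeR), named here after its value was seen, and *Apex1*, an endonuclease of base excision repair (0.24, adjusted p = 0.00351), were higher, and *Ogt*, a glycosyltransferase that binds TET proteins (-0.21, adjusted p = 0.0126), and the deaminase gene *Apobec1* (-0.53, adjusted p = 0.00671) were lower. The calls of *Apex1*, *Ogt* and *Apobec1* were each lost without homozygous replicate 1, and those of *Ogt* and *Apobec1* also without heterozygous replicate 2. The *Apobec1* call was lost in DESeq2 as well. Over the alternatives the log2 fold changes ran from 0.166 to 0.323, -0.346 to -0.093 and -0.648 to -0.425.

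Of 8 readers of methylated CpG, 3 were lower and none higher in homozygous against WT cells (median -0.0807, or -0.137 with library totals), beside 10.5% of all tested genes lower. *Zbtb4* was at 7.762 and 7.089 CPM in WT, 5.024 and 5.712 in heterozygous and 2.882 and 3.574 in libraries of homozygous cells, so the genotypes did not overlap. It was the single gene of the 4 lists past a log2 fold change of 1, with a log2 fold change of -1.195 in homozygous cells (0.143 SE, adjusted p = 3.3e-06 in edgeR), and this call held in all 12 alternatives. The summed fibroblast markers had the same order of genotypes, and their part in the *Zbtb4* difference was not tested. *Mbd4*, a glycosylase with a methyl-CpG binding domain (-0.32, adjusted p = 0.00931 in edgeR), and *Mbd2* (-0.26, adjusted p = 0.0178) were lower too. Neither call held without homozygous replicate 1 or either WT replicate, and the *Mbd2* call was also lost in DESeq2. Over the alternatives the values ran from -0.452 to -0.201 and from -0.32 to -0.229. Against heterozygous cells 2 readers were lower (4 with library totals), beside 12.9% of all tested genes. These readers were *Zbtb4* (-0.73, adjusted p = 0.00147 in edgeR) and *Mbd2* (-0.30, adjusted p = 0.00707). The latter call was lost in DESeq2 and without heterozygous replicate 2 (-0.365 to -0.263 over the alternatives).

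Of 15 partners of TRIM28 and factors that act on imprinted regions, 4 were higher and 1 lower in homozygous against WT cells (median 0.0969, or 0.0401 with library totals), beside 10.9% and 10.5% of all tested genes. *Smchd1*, which silences imprinted clusters, rose from 130.8 ± 2.3 to 157.8 ± 3.13 CPM (SD, n = 2; 0.27, adjusted p = 0.000115 in edgeR). *Atf7ip*, a partner of the histone methyltransferase SETDB1, rose from 140.4 ± 5.44 to 169.3 ± 1.8 CPM (SD, n = 2; 0.27, adjusted p = 0.000147 in edgeR). Against heterozygous cells 6 of these 15 were higher and 1 lower, beside 12.9% and 12.9% of all tested genes. In front in edgeR were *Zfp42* (0.53, adjusted p = 2.82e-08), *Atf7ip* (0.35, adjusted p = 7.1e-06) and *Smchd1* (0.26, adjusted p = 0.000189). The median there was 0.0641, or -0.00302 with library totals, which left 3 higher and 1 lower. *Zfp42* lies on chromosome 8, where the median of 890 genes was 0.51 in the same comparison, and was also higher than in WT cells (0.22, adjusted p = 0.00114 in edgeR).

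Pluripotent and fibroblast markers moved beside these genes. In heterozygous against WT cells 7 of 15 pluripotent markers were lower and none higher (median log2 fold change -0.164), beside 2.91% of all tested genes lower, in the comparison in which *Dnmt3a* and *Dnmt3l* were lower. In homozygous against heterozygous cells 11 of the 15 were higher and none lower (median 0.176). Of all tested genes 12.9% were higher, and of those at or above the level of *Dppa3* 23.8%. Among these markers *Zfp42* (0.53) and *Klf2* (0.38) lie on chromosome 8, where the median of 890 genes was 0.51. In the same comparison all 10 genes lay above 0 (7 of 10 with library totals). With that scaling 7 of these markers were higher and 1 lower (median 0.108). In homozygous against WT cells 1, *Zfp42*, was higher and 1, *Klf4*, lower (median 0.0145, or -0.0424 with library totals), beside 10.9% and 10.5% of all tested genes. The fibroblast markers had medians of -0.466, -1.02 and -0.561 in heterozygous against WT, homozygous against WT and homozygous against heterozygous cells. The part of these shifts in the values of the 10 genes was not tested.

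**Figure D5:**
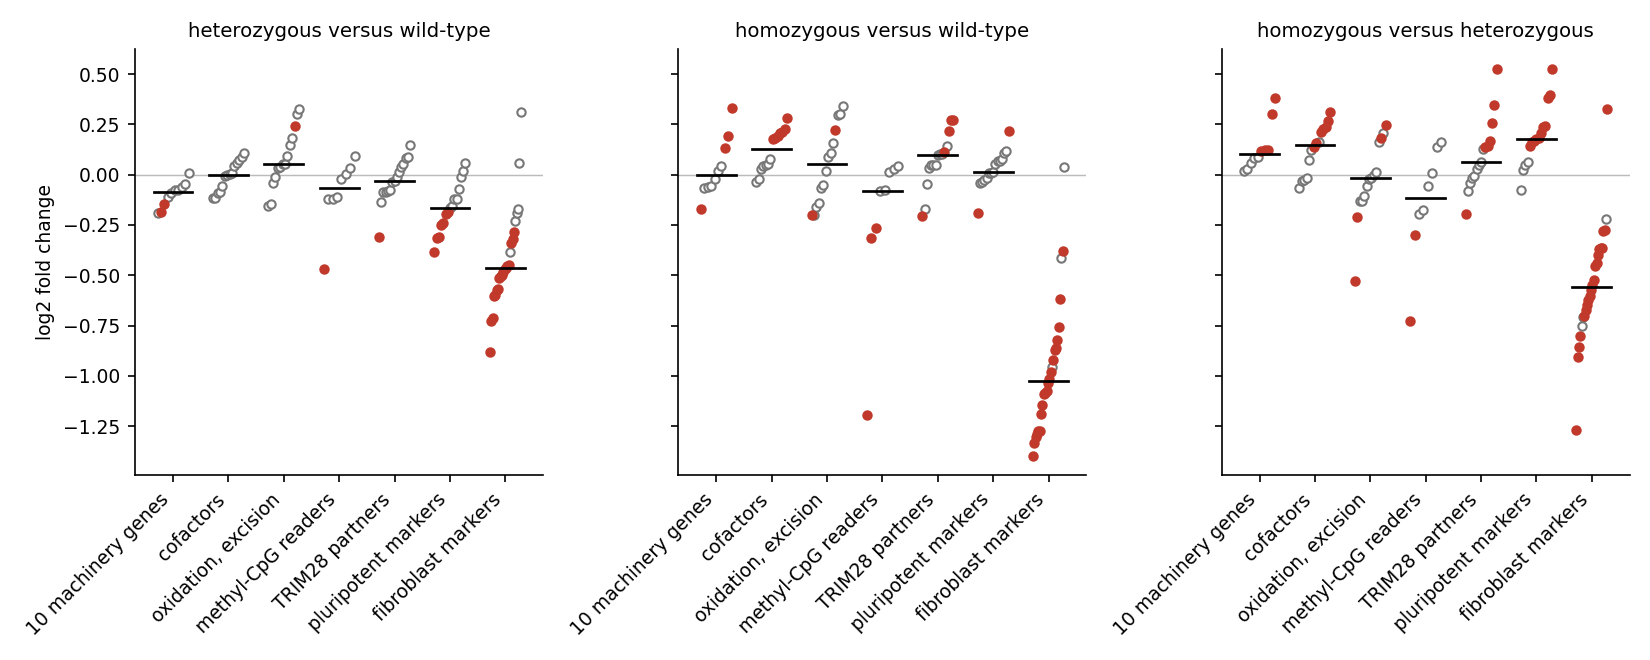
edgeR log2 fold changes of single genes in the 10-gene group, 4 lists of genes that work with it, and pluripotent and fibroblast markers, in the 3 comparisons; filled red points have an adjusted p below 0.05 and bars are list medians. The fibroblast markers lie lowest, with medians of -0.466, -1.02 and -0.561, while the medians of the other groups lie between -0.164 and 0.176.

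Transcripts were also read for 2 classes of genes known for silencing by methylation, which was not measured here. Mean WT levels of the tested germline genes ran from 0.4197 CPM for *Tex101* to 32.44 CPM for *Ddx4*, so not all of them were silent. Of 15 tested germline genes known for silencing by promoter methylation, 1 was lower in heterozygous than in WT cells, beside 2.91% of all tested genes. It was *Hormad1* (log2 fold change -0.49, adjusted p = 0.011 in edgeR), a call lost in DESeq2 and without either WT replicate or heterozygous replicate 1. Its log2 fold change ran from -0.569 to -0.421 over the 12 alternatives. In homozygous against WT cells 4 were higher and none lower (median 0.0882, or 0.0315 with library totals), beside 10.9% of all tested genes higher, led by *Rpl10l*, a copy of a ribosomal protein gene, which rose from 10.21 ± 0.0964 to 14.87 ± 0.336 CPM (SD, n = 2; 0.54, adjusted p = 0.000157 in edgeR). Reads of its parent gene could be counted there. *Tdrd1*, a piRNA pathway gene, rose from 11.22 ± 1.46 to 15.75 ± 1.57 CPM (SD, n = 2; 0.48, adjusted p = 0.00174 in edgeR), and *Tdrkh* passed narrowly (0.33, adjusted p = 0.0458) and was lost in 8 of 12 alternatives. Against heterozygous cells 6 of the 15 were higher and none lower (median 0.309), or 6 and 1 with library totals, beside 12.9% of all tested genes higher, among them *Rpl10l* (0.69, adjusted p = 1.26e-05), *Hormad1* (0.58, adjusted p = 0.000659) and *Slc25a31* (0.94, adjusted p = 0.0249). The *Slc25a31* call was lost without either heterozygous replicate or homozygous replicate 1 (adjusted p up to 0.11).

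Of 32 imprinted genes, which the ZFP57 and TRIM28 proteins help to keep expressed from 1 parental allele, 5 were higher and 2 lower in heterozygous against WT cells (median log2 fold change 0.125), 10 higher and 4 lower in homozygous against WT cells (0.108), and 9 higher and 7 lower in homozygous against heterozygous cells (-0.0633). Beside these counts 5.14%, 21.4% and 25.8% of all tested genes were called in the 3 comparisons. With library totals the last count turned to 8 higher and 11 lower (median -0.13), and the median against WT in homozygous cells was 0.0509. The counts do not separate the parental alleles. *Peg13* was at 6.808 and 6.58 CPM in WT, 1.728 and 1.315 in heterozygous and 7.118 and 7.956 in libraries of homozygous cells. It fell by 2.14 on the log2 scale in heterozygous cells (adjusted p = 8.23e-08 in edgeR) and was 2.31 higher in homozygous than in heterozygous cells. *Nap1l5* had 28 and 24 counts in WT, 0 and 1 in heterozygous and 28 and 35 in libraries of homozygous cells. Against a floor of 3 counts per library it was at least 8.11-fold lower in heterozygous than in WT cells and at least 11-fold lower than in homozygous cells. *Grb10*, a growth regulator, was at 399.4 ± 8.12 CPM in WT and 675.4 ± 18.3 in homozygous cells (SD, n = 2; 0.76, adjusted p = 5.52e-11 in edgeR). *H19* was at 43.85 ± 0.581 CPM in WT and 86.05 ± 4.18 in homozygous cells (SD, n = 2; 0.97, adjusted p = 1.29e-10 in edgeR). Both calls held in all 12 alternatives. *Kcnq1ot1* was higher in homozygous than in WT cells (0.63, adjusted p = 0.00835 in edgeR). That call was lost in DESeq2 and without WT replicate 2 or homozygous replicate 1 (0.428 to 0.822 over the alternatives). *Igf2* was higher in heterozygous than in WT cells (0.70, adjusted p = 0.0235 in edgeR), a call lost in DESeq2 and without either WT replicate or heterozygous replicate 2 (0.507 to 0.858). *Airn* was lower in homozygous than in heterozygous cells (-1.001, adjusted p = 0.0165 in edgeR), a call lost without either heterozygous replicate or homozygous replicate 1 (-1.07 to -0.972). The strand setting of the counting is not given in the sources used here, so reads of *Airn*, *Kcnq1ot1*, *Peg13* and *Nap1l5* and of the genes they overlap may not be separated.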

How the data were processed

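RNA of 6 mESC libraries was analysed, 2 per genotype, with genotype and replicate number taken from the sample labels. For 55385 genes the table deposited by the authors holds counts of reads, not normalized. The submitters' processing notes name Trimmomatic 0.39, STAR 2.6.1d, SAMtools 1.9, featureCounts 1.6.4 and DESeq2 1.22.2 and the builds mm10 and GRCm38. The libraries were made with a stranded mRNA kit. The annotation release and the strand setting of the counting are not given in the sources used here. The 37 mitochondrial genes are listed at 0.

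From these counts, genes that reached 10 counts in 2 or more libraries were fitted in edgeR 4.0.16 (R 4.3.3) with TMM factors in 1 quasi-likelihood model of 3 genotypes, with Benjamini-Hochberg adjustment over the 16951 genes tested. The common biological coefficient of variation was 3.52%. Replicates differed by more than sampling noise, with chi-square per degree of freedom of 2.34, 2.45 and 3.65. The script was tested on simulated data. A floor of 3 counts is 0.102 to 0.131 CPM, and covers counting error only. Positions and exon lengths came from GENCODE M21 (GRCm38), in which 55144 identifiers were found, and promoter windows from RefSeq.

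The 10 genes and the lists were chosen with earlier results of these data known. Named besides the 10 are, for each list and comparison, at most 3 called genes with the largest absolute log2 fold change, and any past a log2 fold change of 1. The lists hold methylation cofactors, oxidation and excision genes, methyl-CpG readers, TRIM28 partners and imprint factors, germline genes, imprinted genes and 4 sets of cell type markers. *Zfp42* is in 2 of them. Alternatives were no filter, filterByExpr, library totals, DESeq2 1.42.0 and its size factors, robust estimation, a replicate block, the compared libraries alone and each replicate left out in turn. The background of genes at or above the level of *Dppa3* and the levels per kb with the longest coding transcript were added after the data were seen. Tables and plots were made in Python 3.11.15.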

Additional observations from a re-analysis of the deposited data

How the results depend on the processing

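Over 12 alternatives for each of the 10 genes in 3 comparisons, 304 of 360 values kept their direction and their side of the threshold. A call was lost in 36, gained in 6, and the direction turned in 14, none of them a called value. The number of the 10 genes called in homozygous against heterozygous cells went from 5 to 2 with library totals only and to 2 with the replicate block. In homozygous against WT cells it went from 4 to 2 in DESeq2 and to 2 with robust estimation. With a library left out it ran from 0 to 1 in heterozygous against WT, from 1 to 4 in homozygous against WT and from 2 to 5 in homozygous against heterozygous cells. None of the 10 passed the fold threshold under any alternative. Under library totals only, *Trim28* (-0.015) and *Dppa3* (-0.040) turned below 0 in homozygous against WT cells, and *Uhrf1* (-0.011), *Dnmt3b* (-0.040) and *Zfp57* (-0.049) in homozygous against heterozygous cells. With a library left out, values that changed sign ran from -0.022 to 0.042 for *Dnmt1*, -0.219 to 0.0098 for *Tet1* and -0.108 to 0.0079 for *Tet2* in heterozygous against WT cells, from -0.033 to 0.074 for *Dppa3* in homozygous against WT cells and from -0.114 to 0.134 for *Zfp57* in homozygous against heterozygous cells. *Zfp57* passed in heterozygous against WT cells without a filter, with the compared libraries alone and with the replicate block. The cause was not tested.

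Same-numbered libraries did not deviate together over all tested genes (correlations of 0.0261, -0.0944 and 0.00865 over 16951 genes). Such correlations, which include many genes with low counts, cannot tell whether same-numbered libraries were prepared together. With the replicate block the genes called were 816, 3447 and 4150 in heterozygous against WT, homozygous against WT and homozygous against heterozygous cells, against 871, 3633 and 4371 without it, and among the 10 genes *Dnmt3l* in heterozygous cells (adjusted p = 0.0778 in edgeR) and *Dnmt1*, *Dnmt3a* and *Trim28* in homozygous against heterozygous cells (0.0515, 0.0619 and 0.0585) no longer passed. DESeq2 called 476, 2243 and 2770 genes. The compared libraries alone gave 1299 in heterozygous against WT cells. Without 1 library the counts ran from 351 to 611, 2115 to 3604 and 2903 to 4339, with a lone library assumed to vary like the other groups. With 2 libraries per genotype, differences near 10% lay at the edge of what the test could call.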
